A study of Rattus norvegicus with 62 samples.

Results

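Kupffer cells, the resident macrophages of the liver, and lymphocytes were followed through 35 of their marker genes in rat livers. The rats were males of an outbred albino stock, Crj:CD(SD)IGS. Of the 35 genes, 16 mark macrophages and 19 mark or act on lymphocytes. A member was measured by a probe set of the array that carried its symbol and no other symbol, and where a gene had several, the one with the highest mean level was used. This gave 14 macrophage and 19 lymphocyte members, 33 of the 14217 genes that the arrays measured in this way. Marco and Vsig4, both macrophage receptors, matched no probe set with 1 symbol and were not analysed here.

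The rats went through a model of 2-stage liver carcinogenesis, in which a mutagenic or toxic initiator is followed by a tumour promoter. Every initiated group drank phenobarbital (PB, 500 ppm in water), a promoter that induces drug-metabolising enzymes through the nuclear receptor CAR. The initiated groups were DEN30/PB and DEN3/PB (diethylnitrosamine, a DNA-alkylating carcinogen, at 30 and 3 mg/kg), TAA/PB (thioacetamide, 45 mg/kg), MP/PB (methapyrilene, 100 mg/kg) and APAP/PB (acetaminophen, 1000 mg/kg). MC/PB rats received the initiator's vehicle, methylcellulose, and then PB, and MC/water rats received vehicle and plain water. Initiators were given over 1 or 2 weeks, and a pause of 2 weeks followed. PB came next, in all groups but MC/water, for 6 weeks in all. Each of the 31 animals gave a piece of liver at 10 weeks, at euthanasia, and one at 5 weeks, removed by partial hepatectomy after 1 week of PB. The 10-week samples of every group, the vehicle groups included, thus came from the lobes left after surgery. There were 5 animals in DEN3/PB, TAA/PB and MP/PB and 4 in each of the other groups, so 62 arrays fell into 14 groups of week and treatment.

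Kupffer cells line the liver sinusoids, where they take up particles, dying cells, haemoglobin and bacterial products from portal blood. Their identity rests on scavenger and pattern-recognition receptors, on signalling through the colony-stimulating factor receptor Csf1r, and on complement C1q, which macrophages make themselves. Liver lymphocytes are rich in natural killer (NK) cells and cytotoxic T cells, which store granzymes and perforin. Both cell types are a small part of whole liver RNA, so the arrays saw them against hepatocyte RNA, and fewer cells of a type cannot be told apart from less RNA per cell.

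Values are MAS5 signals, a probe set's brightness scaled so that the trimmed mean of every array is the same (500.231 to 500.272 here), and differences are given as log2(signal + 25). The median signal of an array lay between 99.3 and 126. The number of arrays, 4 or 5 in a group, limits the precision. The arrays fell into 2 sets of 30 and 32, read from the first component of the deviations from the group means (14.9% of that variation). Each group had 2 or 3 arrays in each set, and both arrays of an animal were in the same set for all 31 animals. Between the sets 34.2% of 10900 genes differed (limma, adjusted p under 0.05), among them 5 of 28 members tested: C1qc, Cd4 and Il7 were higher, and Cd163 and Prf1 lower, in set 1. The component was computed on these same arrays, from genes outside the members and the other marker lists used here. A large share of differing genes was thus built in, and it is no background for the members. The labels name no batch, so what the sets are is not known. Values within each set are given below for the differences of Cd14, Il7 and Ccl5 that passed without a block and for the correlations between weeks that passed.

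The 2 kinds of marker differed in how well they could be measured. Of the 14 macrophage members, 13 had a signal of at least 100 on all 62 arrays. They were the lysosomal glycoprotein Cd68, the haemoglobin scavenger receptor Cd163, the Kupffer cell lectin Clec4f, Csf1r, the lipopolysaccharide co-receptor Cd14, lysozyme Lyz2, cathepsin S (Ctss), the actin-binding protein Aif1, the C1q chains C1qa, C1qb and C1qc, the integrin chain Itgb2 and the F4/80 antigen Adgre1. Itgam, the integrin chain of recruited myeloid cells, was under 100 on all 62 arrays, with a highest signal of 81.9. Among the 19 lymphocyte members, 3 reached 100 on every array: the leukocyte phosphatase Ptprc (238 to 720), the chemokine Ccl5 (303 to 774) and the T-cell kinase Lck (116 to 372). Il7 reached it on 61 arrays, the granule protease Gzma on 56, the co-receptor Cd4 on 48 and the T-cell receptor chain Cd3g on 33. The other 12 were under 100 on most arrays, and the CD8 chain Cd8b and the adhesion receptor Cd2 were so on all of them. Tests required a signal of 100 on at least 4 arrays of the fit, which 26 members passed at each week (13 of each kind) and 28 in the fit over both weeks (13 macrophage and 15 lymphocyte). Itgam, Cd8a, Cd8b, Cd2 and the B-cell receptor chain Cd79b passed none of the 3 filters.

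Markers of the other liver cells were read on the same arrays, although the signal of one probe set is no measure of level against another. Albumin (Alb) had signals of 39383 to 82817, and the endothelial marker Pecam1 206 to 459. The bile duct keratin Krt19 ranged from 40.4 to 288 and the collagen gene Col1a1 from 199 to 989. The neutrophil gene S100a8 reached 100 on 7 of 62 arrays, and Hba-a1, a haemoglobin gene, had no probe set of its own.

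Members varied between animals of a group as well as between the 14 groups. The pooled SD within groups was 0.34 log2 units for the median macrophage member (0.25 to 0.47) and 0.37 for the median lymphocyte member tested (0.27 to 0.65). The range of the 14 group means was 0.66 for the median macrophage member and 0.72 for the median lymphocyte member. The widest ranges of group means belonged to Cd14 among the macrophage members (1.49 log2 units) and to Il7 among the lymphocyte members tested (1.42), and the narrowest to Csf1r (0.38) and Lck (0.45). Of the 13 macrophage members, 7 had their highest group mean in the MC/water livers at 10 weeks (Cd68, Clec4f, Csf1r, Ctss, Aif1, C1qa and C1qb), and 6 had their lowest in the TAA/PB livers at 10 weeks (Cd68, Csf1r, Ctss, Aif1, C1qa and C1qc). Among 15 lymphocyte members, 4 were highest in MC/water livers at 10 weeks and 4 in DEN3/PB livers at 5 weeks. These extremes are descriptions with no test, and no share over all genes was taken for them. Macrophage members varied together between animals, so their counts are not separate observations.

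**Figure D1:**
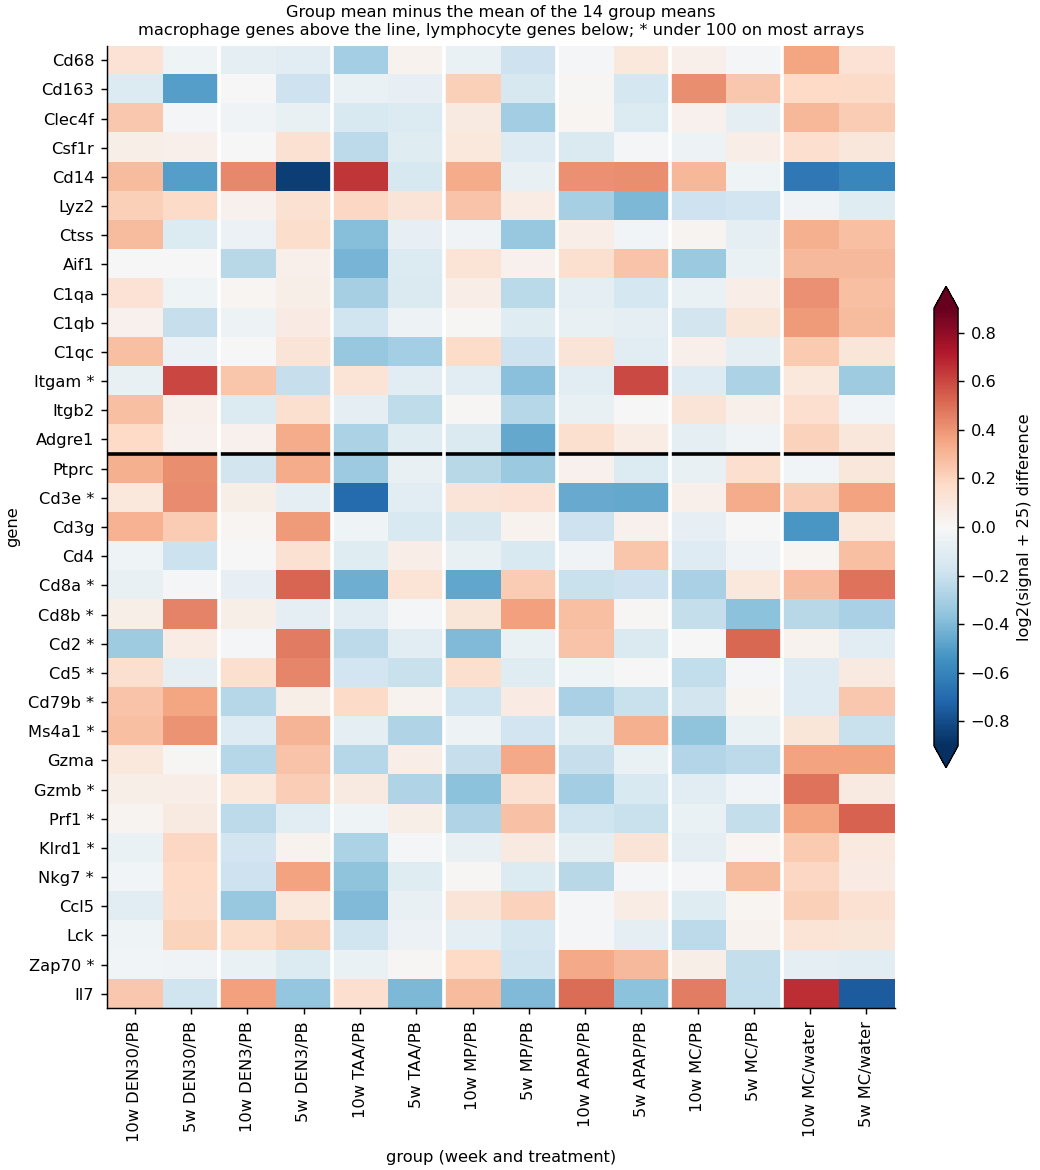
Mean level of each of the 33 measured members in the 14 groups (columns, week and treatment) as the difference from the mean of its 14 group means, in log2(signal + 25) units. Red is higher and blue lower, macrophage genes lie above the black line and lymphocyte genes below it, and a star marks genes under 100 on most arrays; Cd14 and Il7 show the widest ranges among the members that were tested.

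The effect of the promoter alone was asked by setting MC/PB against MC/water livers. Cd14 was the one member that changed. At 10 weeks, after 6 weeks of PB, its signals were 4417, 3955, 4481 and 3142 in MC/PB livers, against 2007, 3812, 1924 and 1207 in MC/water livers. The lowest MC/PB liver lay below the highest MC/water liver, so the groups overlapped through 1 MC/water animal. The mean signal was 3999 ± 618 in MC/PB and 2238 ± 1109 in MC/water livers (SD, n = 4 each), a difference of 0.94 ± 0.26 log2 units (SE, limma, adjusted p = 0.0454). This was 1 of 26 members tested, against 2.26% of all genes called at 10 weeks. The call was close to the threshold. It was lost without replicate 1, 2 or 3 of MC/PB (differences of 0.89, 0.94 and 0.88, adjusted p 0.127, 0.099 and 0.108) and without replicate 1, 3 or 4 of MC/water (0.93, 0.91 and 0.69, adjusted p 0.0941, 0.106 and 0.198). Within array set 1 the difference was 1.17 ± 0.24 and within set 2 it was 0.71 ± 0.41, neither past the threshold.

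After 1 week of PB no member passed the test, where 1.25% of all genes did. Cd14 had signals of 4353, 3682, 2842 and 2106 in MC/PB livers and 1570, 3296, 1983 and 2038 in MC/water livers, a difference of 0.54 ± 0.24 (adjusted p = 0.384). Gzma, a serine protease of cytotoxic granules, had 180, 107, 150 and 121 in MC/PB livers and 195, 215, 240 and 234 in MC/water livers. All 4 MC/PB values lay below all 4 MC/water values, as in 2.9% of all genes tested, and the difference of -0.60 ± 0.20 did not pass (adjusted p = 0.189). Ctss, which processes antigens in lysosomes, differed by -0.36 ± 0.16 (adjusted p = 0.375). At an unadjusted p under 0.05, 1 macrophage member stood higher (Cd14) and 2 members lower (Ctss and Gzma), where 5.84% and 5.01% of all genes did.

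At 10 weeks most members lay on the lower side in MC/PB livers without passing the test. The difference was below 0 for 11 of 13 macrophage members, with a median of -0.25, and for 11 of 13 lymphocyte members, with a median of -0.21, whereas the median over all genes was -0.01 and 47.9% of them lay above 0. The next smallest p-values after Cd14 belonged to C1qb (-0.54 ± 0.22, adjusted p = 0.242) and Aif1 (-0.63 ± 0.26, adjusted p = 0.248). C1qa, which encodes a chain of C1q, had 3030, 2653, 2253 and 3084 in MC/PB livers and 3213, 4075, 4270 and 3746 in MC/water livers. These groups did not overlap, nor did those of granzyme Gzmb, which had 48.6, 55.7, 62.9 and 65.5 in MC/PB livers and 123, 70.9, 112 and 102 in MC/water livers, against 4.06% of all genes that did not overlap in this direction. The difference was -0.47 ± 0.24 for C1qa (adjusted p = 0.397) and -0.59 ± 0.30 for Gzmb (adjusted p = 0.39). All 4 MC/PB values of Gzmb were under 100, and at 10 weeks it reached 100 on 3 initiated arrays. It thus met the filter of 4 arrays only through MC/water, the group where it was high. That selection favours a separation of the groups, so no weight is put on it. Macrophage members varied together between animals, so their common side is not 11 separate observations.

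The macrophage markers Cd68 and Csf1r overlapped between MC/PB and MC/water livers at both weeks. Cd68 had 913, 760, 705 and 1006 in MC/PB livers and 968, 1069, 987 and 1176 in MC/water livers at 10 weeks, and 968, 733, 737 and 811 against 883, 694, 1013 and 1020 at 5 weeks. Csf1r, the receptor on which macrophage survival depends, had 922, 638, 557 and 808 in MC/PB livers and 741, 896, 996 and 707 in MC/water livers at 10 weeks. Its values at 5 weeks were 958, 743, 785 and 649 in MC/PB livers and 1028, 649, 852 and 710 in MC/water livers. Over the 23 initiated livers Cd68 lay between 516 and 1159 at 10 weeks and between 497 and 1183 at 5 weeks. In the same livers Csf1r lay between 488 and 1012 at 10 weeks and between 573 and 1048 at 5 weeks. C1qa, whose groups were apart at 10 weeks as given above, overlapped at 5 weeks, with 3762, 2810, 3146 and 2360 in MC/PB livers and 4084, 2801, 3721 and 3309 in MC/water livers. It ranged over 1455 to 4499 at 10 weeks and 1621 to 3709 at 5 weeks in the initiated livers.

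The T-cell markers Cd3e and Cd8a and the B-cell marker Ms4a1 were under 100 on most arrays, unlike Lck and Cd4. Cd3e, a chain of the T-cell receptor complex, had 75.4, 45.8, 125 and 50.8 in MC/PB livers and 95.2, 108, 69.1 and 62.9 in MC/water livers at 10 weeks, and 108, 87.4, 66.8 and 107 against 108, 88.7, 81.7 and 96.3 at 5 weeks. In the 23 initiated livers it reached 100 on 1 array at 10 weeks and on 6 at 5 weeks. Cd8a, the co-receptor of cytotoxic T cells, had 13.9, 55.0, 62.9 and 12.4 in MC/PB livers and 38.6, 49.0, 100 and 59.2 in MC/water livers at 10 weeks, and 40.0, 91.9, 15.0 and 73.7 against 61.6, 66.0, 89.2 and 74.3 at 5 weeks. Ms4a1, the B-cell antigen CD20, had 87.7, 23.7, 75.8 and 7.5 in MC/PB livers and 54.2, 96.0, 72.3 and 45.1 in MC/water livers at 10 weeks. Its values at 5 weeks were 96.8, 36.7, 166 and 3.90 in MC/PB livers and 9.86, 55.3, 83.6 and 67.4 in MC/water livers. The highest signal among the 46 initiated arrays was 142 for Cd3e, 103 for Cd8a and 131 for Ms4a1. All 3 genes overlapped between MC/PB and MC/water at both weeks.

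**Figure D2:**
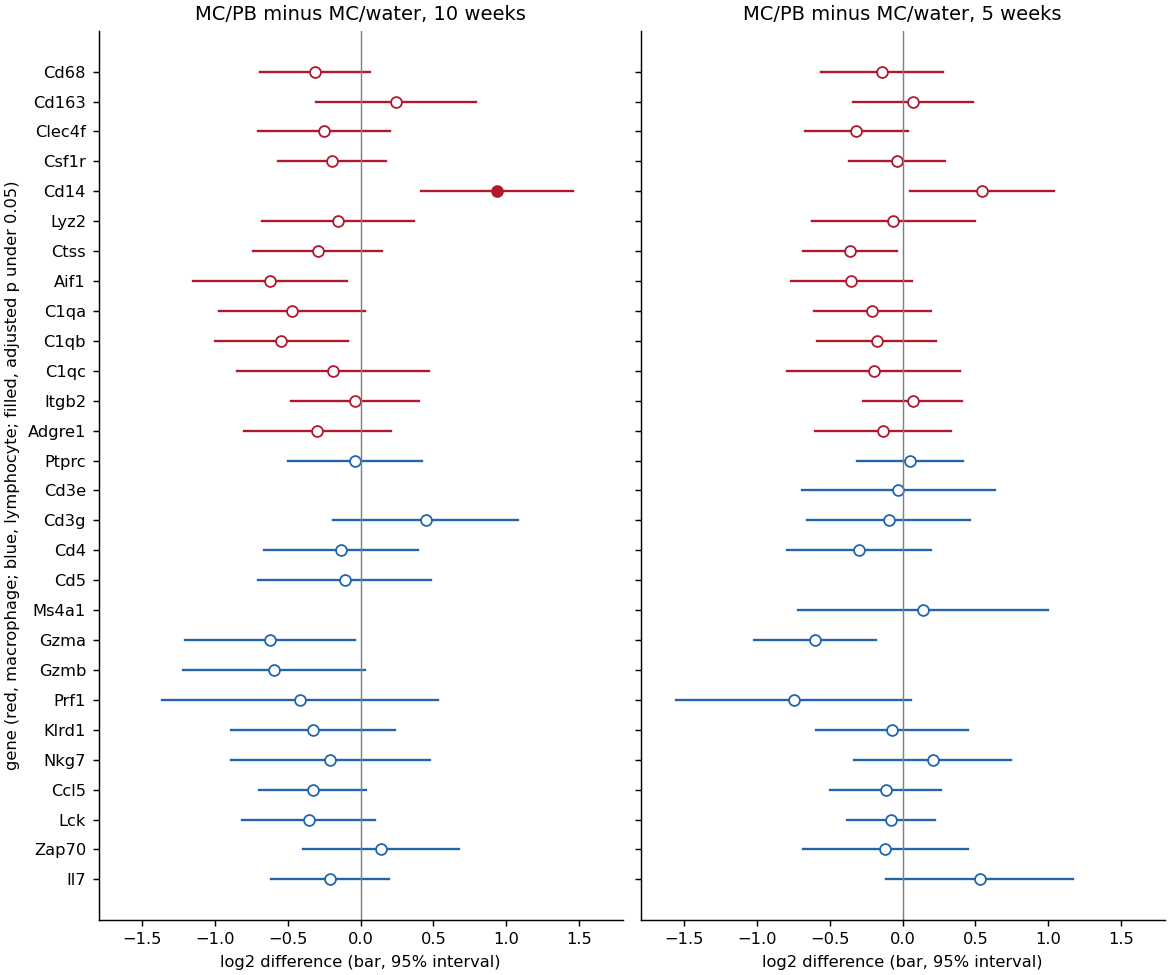
Difference between MC/PB and MC/water livers in log2(signal + 25) for each tested member, at 10 weeks (left) and 5 weeks (right), with its 95% interval; red marks macrophage and blue lymphocyte genes, and a filled point an adjusted p under 0.05. Cd14 at 10 weeks (0.94) is the one filled point, and most other macrophage genes lie left of 0 at 10 weeks.

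A pooled view of PB was added after the values had been seen, with the mean of the 6 PB-drinking groups set against MC/water. Cd14 rose at 10 weeks by 1.04 ± 0.19 log2 units (adjusted p = 6.24e-04), the 1 member of 26 past the threshold, where 8.49% of all genes were. Its difference was 1.16 ± 0.18 within array set 1 (adjusted p = 0.00721) and 0.90 ± 0.31 within set 2 (adjusted p = 0.15). Cd68 (-0.40 ± 0.14, adjusted p = 0.0712) and C1qb (-0.45 ± 0.17, adjusted p = 0.0985) came next and did not pass. At 5 weeks no member passed, where 4.23% of all genes did, and the smallest p-values belonged to Ctss (-0.35 ± 0.12, adjusted p = 0.0993), Clec4f (-0.35 ± 0.13, adjusted p = 0.14) and C1qa (-0.35 ± 0.15, adjusted p = 0.229). The 6 PB-drinking groups share 1 MC/water control of 4 rats at each week.

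Other myeloid genes and chemokines gave a few calls beside these. Between MC/PB and MC/water 2.26% of all genes passed at 10 weeks and 1.25% at 5 weeks. Of 35 other macrophage and myeloid genes tested at 10 weeks, Lgals3 alone passed between MC/PB and MC/water: galectin-3, a sugar-binding protein of activated macrophages and bile duct cells, had a mean signal of 2253 ± 399 in MC/PB and 918 ± 24.2 in MC/water livers (1.26 ± 0.23, adjusted p = 0.00144). Of 26 chemokine and adhesion genes, Cxcl9, an interferon-induced chemokine for activated T cells, alone rose, by 1.45 ± 0.28 at 10 weeks (adjusted p = 0.00239) and by 1.68 ± 0.28 at 5 weeks (adjusted p = 6.76e-04). None of 18 other T and NK cell genes and none of 6 B and plasma cell genes passed at 10 weeks. Their unadjusted counts were 1 lower and 0, and none of 19 and none of 6 passed at 5 weeks, where both unadjusted counts were 0. These lists, like the members, were chosen with earlier results of these data known.

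Markers of other cells moved in the same comparison. Epcam, an epithelial adhesion molecule of bile duct and progenitor cells, rose by 1.26 ± 0.24 at 10 weeks (adjusted p = 0.00245) and by 0.80 ± 0.15 at 5 weeks (adjusted p = 0.00326), 1 of 4 biliary genes tested. Krt19 (-0.27 ± 0.24), Spp1 (-0.31 ± 0.30) and Cd24 (0.05 ± 0.25) did not pass at 10 weeks, so the list did not rise as a whole. The summed signal of these 4 genes, Epcam included, was 1423 to 2233 in MC/PB and 732 to 1228 in MC/water livers at 10 weeks. Hnf4a, a transcription factor of hepatocytes, fell by 0.56 at 5 weeks (SE 0.12, adjusted p = 0.0116). At 10 weeks no hepatocyte gene of 11 tested passed, and their summed signal was 333306 to 442453 in MC/PB and 378320 to 431473 in MC/water livers. No gene of 2 neutrophil, 5 blood and platelet, 11 endothelial and 11 stellate and fibroblast genes passed at 10 weeks. Their part in the Cd14 result was not tested.

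The effect of each initiator was asked by setting its PB-drinking group against MC/PB, which serves as the control in all 5 comparisons of a week. No macrophage or lymphocyte member passed the test in any of the 10 comparisons (limma), and hardly any gene did. At 10 weeks the share of all genes called was 0.0285% for DEN30, 0.019% for DEN3, 0.00949% for TAA, 0.0854% for MP and 0.0664% for APAP. At 5 weeks it was 0.114% for DEN30, 0.0381% for DEN3, 0.0191% for TAA, 0.0572% for MP and 0.0% for APAP. Of 65 tests of macrophage members at each week, 0 had an unadjusted p under 0.05 at 10 weeks and 3 had at 5 weeks, all 3 on the lower side. Over all genes and the same 5 comparisons, 3.13% of tests were so on the higher side and 2.48% on the lower side at 10 weeks, and 3.65% and 2.74% at 5 weeks. Of 65 tests of lymphocyte members, 0 had at 10 weeks, and 4 had at 5 weeks, 2 on either side. The differences of macrophage members ran from -0.54 to 0.48 at 10 weeks and from -0.80 to 0.46 at 5 weeks. Those of lymphocyte members ran from -0.34 to 0.40 and from -0.79 to 0.58.

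Cd163, which clears haemoglobin bound to haptoglobin, was the one macrophage member below MC/PB in all 5 initiated groups at 10 weeks, and with C1qa and C1qb it was 1 of 3 that were so at 5 weeks. Since the 5 comparisons share their control, 13.7% of all genes lay below it in all 5 at 10 weeks and 16.1% at 5 weeks, so that 1 and 3 of 13 members are near that background. Among 13 lymphocyte members, 4 lay above MC/PB in all 5 groups at 10 weeks (Cd4, Cd5, Gzma and Lck) and 3 at 5 weeks (Gzma, Prf1 and Zap70), where 17.5% and 18.1% of all genes did. Cd5 reached 100 on 3 initiated arrays at 10 weeks, and Zap70 on 6 at 5 weeks. Without the initiated arrays, the side where they were high, neither would have met the filter of 4 arrays in that week. That selection favours such a count, so no weight is put on either gene. At 5 weeks the Cd163 signals were 204, 243, 196 and 313 in DEN30/PB livers, against 411, 347, 424 and 462 in MC/PB livers. All DEN30/PB values lay below all MC/PB values, as in 1.46% of all genes, and the difference of -0.74 ± 0.20 did not pass (95% interval -1.15 to -0.33, adjusted p = 0.259). At 10 weeks the DEN30/PB livers had 342, 341, 232 and 346 and the MC/PB livers 435, 415, 383 and 673, again without overlap, as in 1.24% of all genes (-0.54 ± 0.27, adjusted p = 0.966). In APAP/PB livers at 5 weeks Cd163 had 283, 322, 327 and 285, likewise below every MC/PB value, as in 1.85% of all genes (-0.40 ± 0.20, adjusted p = 0.71).

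The remaining initiated groups overlapped with MC/PB for Cd163. In DEN3/PB livers it had 378, 246, 352, 693 and 193 at 10 weeks (-0.43 ± 0.25) and 239, 336, 284, 445 and 224 at 5 weeks (-0.43 ± 0.19). TAA/PB livers had 397, 325, 325, 320 and 273 at 10 weeks (-0.48 ± 0.25) and 361, 496, 351, 218 and 255 at 5 weeks (-0.31 ± 0.19). MP/PB livers had 416, 392, 262, 409 and 579 at 10 weeks (-0.21 ± 0.25) and 314, 390, 202, 308 and 350 at 5 weeks (-0.39 ± 0.19). APAP/PB livers had 242, 361, 388 and 411 at 10 weeks (-0.41 ± 0.27). The MC/water livers, which had no part in these differences, had 335, 645, 358 and 293 at 10 weeks and 358, 437, 401 and 363 at 5 weeks. With the 5 initiated groups averaged, a comparison added after the values were seen, Cd163 differed from MC/PB by -0.41 ± 0.21 at 10 weeks (adjusted p = 0.957) and by -0.45 ± 0.15 at 5 weeks (adjusted p = 0.458). No member passed in these averaged comparisons either, where 0.00949% of all genes did at 10 weeks and 0.0% at 5 weeks. Lyz2 (0.27 ± 0.20) and Aif1 (0.25 ± 0.20) had the next smallest p-values at 10 weeks, and Gzma (0.36 ± 0.16) and Cd3e (-0.35 ± 0.25) at 5 weeks.

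Cd14 at 5 weeks had the largest single differences from MC/PB among macrophage members. Its signals were 1685, 1488, 2548, 1562 and 1808 in DEN3/PB livers, against 4353, 3682, 2842 and 2106 in MC/PB livers, with 1 value of each group inside the other's range (-0.80 ± 0.23, adjusted p = 0.377). In DEN30/PB livers it had 2062, 2332, 1718 and 3255 (-0.45 ± 0.24, adjusted p = 0.922) and in APAP/PB livers 3466, 3711, 4862 and 5565 (0.46 ± 0.24, adjusted p = 0.731). At 10 weeks no Cd14 difference from MC/PB was among the 3 smallest p-values of any initiator. The change of the DEN3 difference between the weeks was 0.94 ± 0.35 and had an unadjusted p of 0.00916, and no gene passed this test after adjustment.

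The other members with the smallest p-values differed from one initiator to the next. For DEN30 they were C1qb at 5 weeks (-0.31 ± 0.20), and Ptprc (0.38 ± 0.23) and Lyz2 (0.40 ± 0.25) at 10 weeks. Lyz2 at 5 weeks had 3806, 4646, 3579 and 3747 in DEN30/PB livers, all above the 2919, 3149, 3429 and 2864 of MC/PB livers, as in 2.2% of all genes. For DEN3 they were Gzma at 5 weeks (0.49 ± 0.19) and Lck (0.40 ± 0.21) and Ccl5 (-0.23 ± 0.17) at 10 weeks. For TAA they were Itgb2 (-0.27 ± 0.16) and the NK granule protein Nkg7 (-0.39 ± 0.25) at 5 weeks, and Ctss (-0.41 ± 0.21) and Cd68 (-0.35 ± 0.18) at 10 weeks. None of these passed, with adjusted p-values of 0.838 or more.

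For MP the smallest p-values at 5 weeks belonged to Gzma (0.58 ± 0.19, adjusted p = 0.361) and Ptprc (-0.48 ± 0.17, adjusted p = 0.386). Ptprc, the phosphatase CD45 that all leukocytes carry, had 382, 373, 320, 291 and 371 in MP/PB livers and 550, 508, 526 and 399 in MC/PB livers, without overlap, as in 1.22% of all genes. A second Ptprc probe set differed by -0.17 ± 0.33. At 10 weeks Aif1 (0.46 ± 0.25), Lyz2 (0.44 ± 0.24) and Ccl5 (0.23 ± 0.17) led for MP. For APAP, Cd3e at 5 weeks had 22.5, 63.4, 28.7 and 64.3 in APAP/PB livers and 108, 87.4, 66.8 and 107 in MC/PB livers, also without overlap, as in 1.85% of all genes (-0.79 ± 0.32, adjusted p = 0.608). All 4 APAP/PB values of Cd3e were under the signal of 100 at which genes were held to be measured. At 10 weeks Aif1 (0.48 ± 0.26) and the T-cell kinase Zap70 (0.29 ± 0.26) led for APAP besides Cd163. Among the marker lists of other cells, the hepatocyte enzyme Tat, which fell by 1.39 in APAP/PB livers at 10 weeks (SE 0.25, adjusted p = 0.0127), was the one gene past the threshold in these 10 comparisons.

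**Figure D3:**
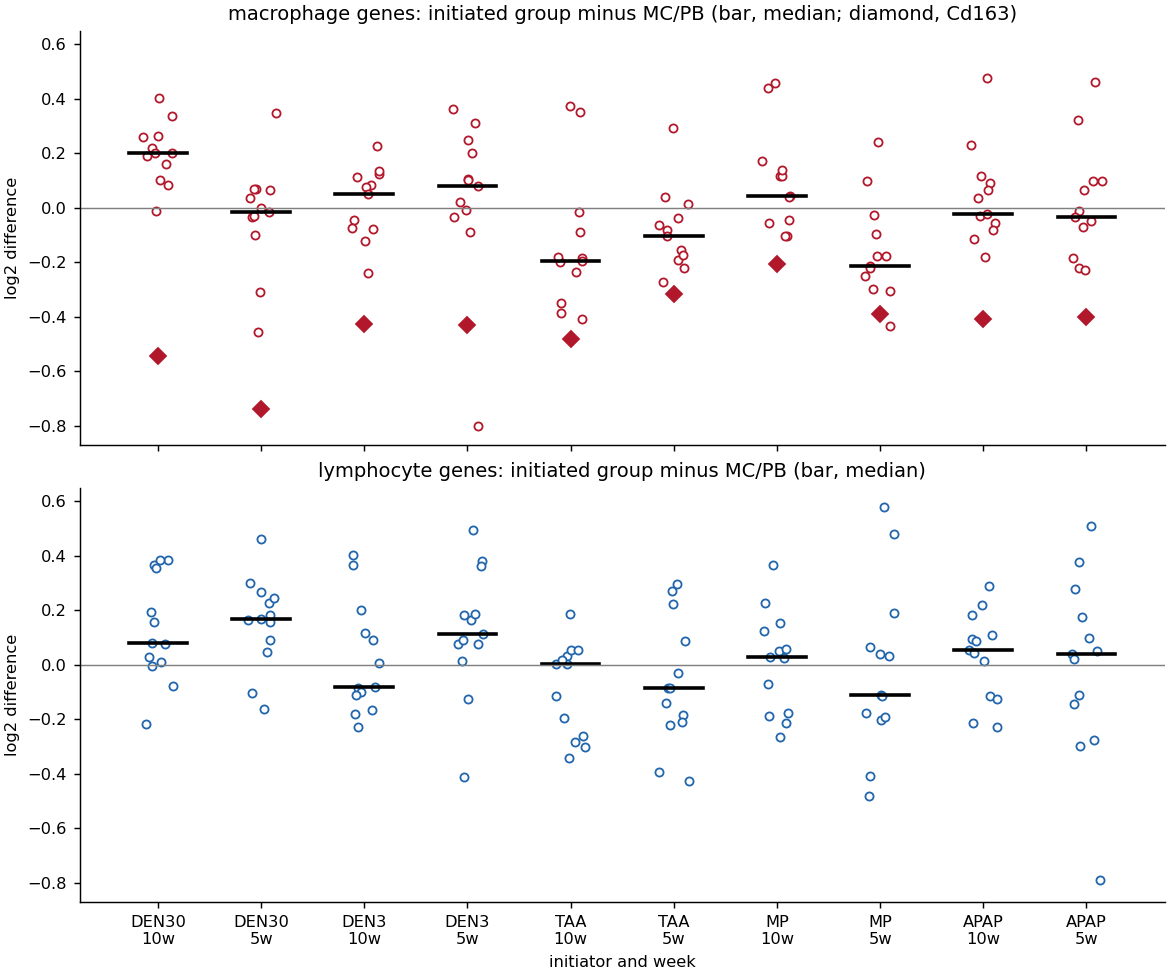
Difference of each initiated group from MC/PB in log2(signal + 25) for the 13 macrophage genes (upper panel) and 13 lymphocyte genes (lower panel) tested, by initiator and week; circles are genes, the diamond is Cd163 and the bar is the median. The diamond lies below 0 in all 10 columns, between -0.74 and -0.21, and no point passed the test. The 5 columns of a week share the MC/PB control, and both weeks hold the same animals. Of all genes, 13.7% lay below that control in all 5 groups at 10 weeks and 16.1% at 5 weeks.

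The dose of diethylnitrosamine made no difference past the threshold. With DEN30/PB set against DEN3/PB, 0 of 26 members passed at either week, where 0.0% of all genes did at 10 weeks and 0.00954% at 5 weeks. At 10 weeks 1 lymphocyte member stood higher at an unadjusted p under 0.05, as did 2.29% of all genes. This was Ptprc at 0.48 ± 0.21, followed by Itgb2 (0.40 ± 0.20) and Ctss (0.34 ± 0.21). At 5 weeks none had, and Ctss (-0.28 ± 0.15), Cd3e (0.50 ± 0.31) and Cd163 (-0.31 ± 0.19) came first.

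The difference between 10 and 5 weeks was asked within each treatment, where the same rats gave both livers. Without the animal as a block, Cd14 passed in DEN3/PB livers and Il7 in MC/water livers. With it, Ccl5, Ptprc and Gzma also passed in DEN3/PB livers and Gzma in MP/PB livers, all 3 genes lower at 10 weeks, and Cd14 and Il7 passed in further treatments. Cd14 in DEN3/PB livers had 5462, 3533, 4817, 3045 and 5495 at 10 weeks, against 1685, 1488, 2548, 1562 and 1808 at 5 weeks. Every 10-week value lay above every 5-week value, as in 3.17% of all genes, and each of the 5 animals was higher at 10 weeks, by 0.91 to 1.68 log2 units. The difference was 1.27 ± 0.23 (limma, adjusted p = 5.93e-04), 1 of 28 members, where 2.9% of all genes passed. It was 1.39 ± 0.24 within array set 1 (adjusted p = 0.022) and 1.09 ± 0.40 within set 2 (adjusted p = 0.384). With the animal as a block the adjusted p was 2.18e-06. On that fit 5 members passed, where 5.47% of all genes were higher and 4.27% lower: Cd14, Il7 (0.72 ± 0.23, adjusted p = 0.0468), Ccl5 (-0.44 ± 0.12, adjusted p = 0.0239), Ptprc (-0.50 ± 0.16, adjusted p = 0.048) and Gzma (-0.51 ± 0.16, adjusted p = 0.0404). Nkg7 did not pass with or without the block, although its groups were apart. Its signals were 94.5, 48.1, 60.3, 92.9 and 65.2 at 10 weeks and 118, 117, 110, 114 and 113 at 5 weeks, an order that 2.07% of all genes share.

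In other PB-drinking groups Cd14 moved the same way by smaller amounts. TAA/PB livers had 4508, 6610, 4802, 5267 and 4385 at 10 weeks and 2486, 3467, 3269, 2572 and 2870 at 5 weeks, again without overlap, as in 1.46% of all genes (0.79 ± 0.23, adjusted p = 0.0579, and 0.83 with adjusted p = 0.0499 without the 10-week array of replicate 1). With the animal as a block this passed (adjusted p = 6.87e-04, where 3.08% of all genes rose), as it did in DEN30/PB livers, which had 4527, 3187, 3382 and 4851 at 10 weeks and 2062, 2332, 1718 and 3255 at 5 weeks (0.78 ± 0.15, adjusted p = 0.0209, where 0.514% of all genes rose). MP/PB livers had 5031, 3992, 3505, 5161 and 3100 at 10 weeks and 4329, 2730, 2284, 4261 and 2378 at 5 weeks. MC/PB livers had 4417, 3955, 4481 and 3142 at 10 weeks and 4353, 3682, 2842 and 2106 at 5 weeks (0.34 ± 0.26). All 5 MP/PB and all 4 MC/PB animals were higher at 10 weeks. In APAP/PB livers (3086, 3383, 5759 and 5644 at 10 weeks, 3466, 3711, 4862 and 5565 at 5 weeks) and in MC/water livers (2007, 3812, 1924 and 1207 at 10 weeks, 1570, 3296, 1983 and 2038 at 5 weeks), 2 of 4 animals were higher. Whether these changes differ between treatments was tested as the change of each effect with time, and no member passed in any of the 6 such tests.

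**Figure D4:**
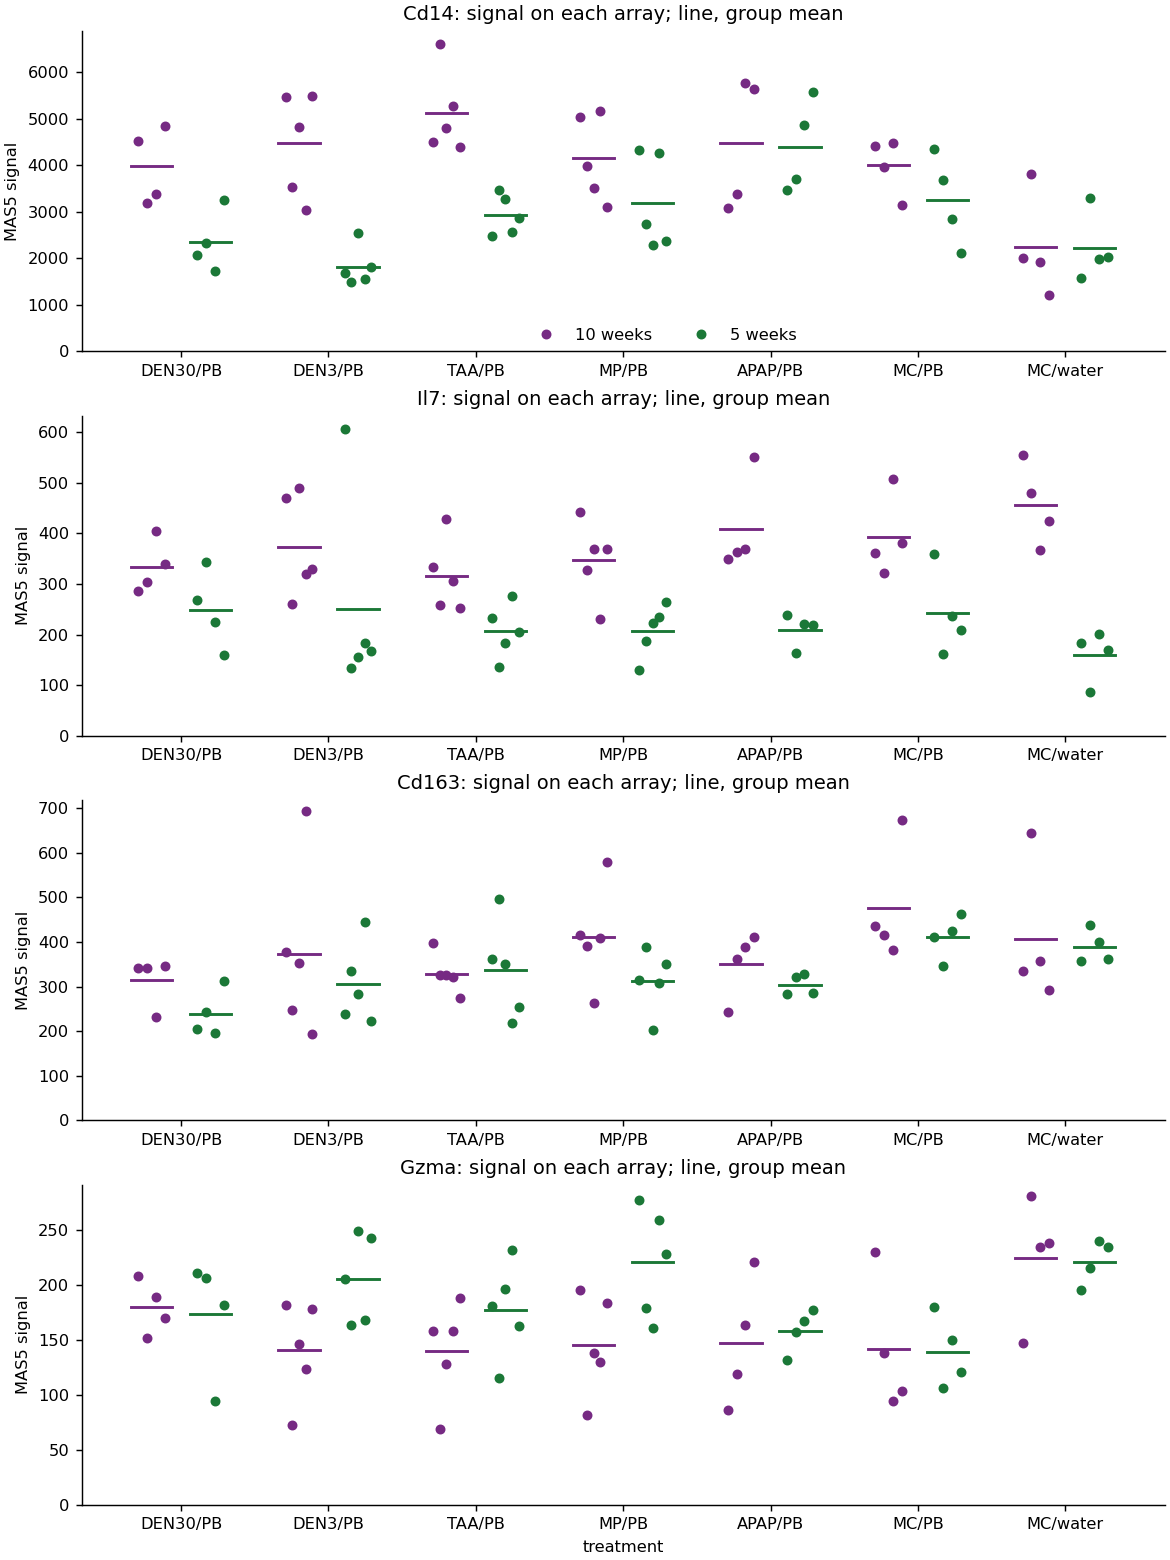
MAS5 signal of Cd14, Il7, Cd163 and Gzma on each of the 62 arrays, by treatment, with 10 weeks (purple) left of 5 weeks (green); lines are group means and all axes start at 0. Cd14 in DEN3/PB livers reads 3045 to 5495 at 10 weeks and 1488 to 2548 at 5 weeks, and Il7 in MC/water livers 368 to 556 and 86.0 to 201.

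The Cd14 start site could be read from RefSeq, whose table for the GRCr8 build held an upstream window for 25 members, 13 macrophage genes (Marco and Vsig4 among them) and 12 lymphocyte genes. The window of 300 bases, from 250 before the gene's start to 50 after it, is shown for Cd14 (chr18:28611109-28611408, minus strand), the member that changed, and below for 2 C1q chains, which varied together. Capitals mark GAGGAA on either strand, the core of the PU box to which the myeloid factor PU.1 binds.
Cd14: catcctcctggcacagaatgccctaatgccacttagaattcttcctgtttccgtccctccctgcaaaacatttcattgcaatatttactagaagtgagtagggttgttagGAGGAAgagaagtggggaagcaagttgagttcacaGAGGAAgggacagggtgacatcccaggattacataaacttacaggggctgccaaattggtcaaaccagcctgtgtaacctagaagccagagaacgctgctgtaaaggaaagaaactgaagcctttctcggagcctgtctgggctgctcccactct
The Cd14 window held this hexamer 2 times. It was present in 69.2% of the 13 macrophage windows and 41.7% of the 12 lymphocyte windows, against 27.5% of all 27457 windows. TGTGGT, the core of the site for RUNX factors, searched on both strands, was present in 2 of the 13 macrophage windows and 6 of the 12 lymphocyte windows, against 16.9% of all windows. The motifs can share no more than an end base. A match is a string of letters, not a binding site.

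Il7 was the one lymphocyte member that passed over time in a single treatment without the animal as a block. Interleukin-7 is a survival factor for T cells and, in mice, for B-cell precursors, and it is made by stromal and epithelial cells, in mice also by hepatocytes, rather than by lymphocytes. In MC/water livers it had 556, 480, 368 and 424 at 10 weeks, against 184, 86.0, 201 and 169 at 5 weeks. The groups did not overlap, as in 2.24% of all genes, and all 4 animals were higher at 10 weeks, by 0.79 to 2.18 log2 units. The difference was 1.42 ± 0.27 (limma, adjusted p = 0.0149), 1 of 28 members, where 0.0459% of all genes passed. It was 1.13 ± 0.40 within array set 1 and 1.70 ± 0.31 within set 2, with adjusted p-values of 0.802 and 0.054. The call was lost without the 10-week array of replicate 1, 2 or 4 (differences of 1.32, 1.39 and 1.44, adjusted p 0.0555, 0.0732 and 0.0857) and without the 5-week array of replicate 2 (1.19, adjusted p = 0.085). A second Il7 probe set, with a median signal of 96.8, differed by 1.00 ± 0.29 (adjusted p = 0.202).

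The PB-drinking groups lay on the same side for Il7. APAP/PB livers had 349, 362, 368 and 551 at 10 weeks and 238, 163, 221 and 218 at 5 weeks, without overlap, as in 3.36% of all genes (0.87 ± 0.27, adjusted p = 0.0856, and 0.0432 with the animal as a block, where 3.26% of all genes rose). MC/PB livers had 362, 323, 508 and 381 at 10 weeks and 360, 162, 236 and 210 at 5 weeks (0.68 ± 0.27, adjusted p = 0.264). DEN3/PB livers had 470, 260, 490, 319 and 331 at 10 weeks and 607, 135, 155, 184 and 168 at 5 weeks, where 1 animal stood far above the other 4 (0.72 ± 0.24, adjusted p = 0.0917). Without that array the difference was 1.08 (adjusted p = 0.00183). The differences were 0.68 ± 0.24 in MP/PB, 0.56 ± 0.24 in TAA/PB and 0.42 ± 0.27 in DEN30/PB livers. Il7 was higher at 10 weeks in 28 of 31 animals.

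Over the 7 treatments together, a comparison added after the values were seen, 3 of 28 members passed, where 24.7% of all genes did. Il7 rose by 0.76 ± 0.10 log2 units (adjusted p = 1.78e-08), and its second probe set by 0.47 ± 0.10 (adjusted p = 4.87e-04). Cd14 rose by 0.50 ± 0.09 (adjusted p = 3.33e-05) and was higher at 10 weeks in 27 of 31 animals. Ccl5, a chemokine made by cytotoxic T and NK cells, fell by 0.18 (SE 0.07, adjusted p = 0.0424), a call that 31 of 62 fits without 1 array lost. Within array sets 1 and 2 the values were 0.75 ± 0.15 and 0.81 ± 0.11 for Il7 and 0.58 ± 0.11 and 0.41 ± 0.14 for Cd14, and for Ccl5 they were -0.21 ± 0.11 and -0.15 ± 0.09 (adjusted p 0.266 and 0.278). With the animal as a block 6 members passed: Il7, Cd14 and Ccl5, and further Clec4f (0.15 ± 0.05, adjusted p = 0.0393), Cd163 (0.18 ± 0.06, adjusted p = 0.0191) and Gzma (-0.21 ± 0.06, adjusted p = 0.0122), where 18.0% of all genes were called higher and 17.0% lower. The difference was above 0 for 10 of 13 macrophage members (median 0.05) and 2 of 15 lymphocyte members (median -0.12), while 50.3% of all genes lay above 0.

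In the single treatments few further members came near the threshold. The share of all genes called over time was 0.0% in DEN30/PB, 1.76% in TAA/PB, 1.34% in MP/PB, 1.47% in APAP/PB and 1.31% in MC/PB livers, and in these 5 treatments 0 of 28 members passed without the block. Cd14 and Il7 apart, the smallest p-value in DEN30/PB livers belonged to Ctss (0.41 ± 0.20, adjusted p = 0.598). All 13 macrophage members lay above 0 in DEN30/PB livers (median 0.23) and in MP/PB livers (median 0.30), against 50.7% and 48.3% of all genes. In DEN3/PB livers 4 of 13 lay above 0 (median -0.11) and in TAA/PB livers also 4 (median -0.12), where 5718 and 5307 of 10900 genes did. The count was 12 in MC/water (median 0.08), 8 in APAP/PB (median 0.07) and 7 in MC/PB livers (median 0.05). In MP/PB livers Gzma was called lower with the animal as a block, with a difference of -0.55 ± 0.16 (adjusted p = 0.0429, where 2.74% of all genes fell). In the same livers Clec4f, a galactose-binding lectin of Kupffer cells, differed by 0.39 ± 0.18 (adjusted p = 0.37). Others among the 3 smallest p-values were Cd3g (-0.62 ± 0.30) and Gzmb (0.41 ± 0.31) in MC/water, Lck (-0.27 ± 0.19) in MC/PB, Cd3e (-0.60 ± 0.30) in TAA/PB, and Cd4 (-0.28 ± 0.25) and Ms4a1 (-0.43 ± 0.40) in APAP/PB livers. None of these passed.

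Genes of other cells changed over the same interval, as did 24.7% of all genes over the 7 treatments. Over the 7 treatments the blood and platelet genes Alas2 (-0.90 ± 0.09), Hbb (-0.90 ± 0.10), Pf4 (-0.82 ± 0.09) and Itga2b (-0.19 ± 0.07) fell, 4 of 6 tested. Their summed signal ranged from 7814 to 22858 at 10 weeks and from 7166 to 35804 at 5 weeks. Of 11 endothelial genes 5 fell, with Kdr at -0.37 ± 0.03, Lyve1 at -0.30 ± 0.04, Stab2 at -0.39 ± 0.07 and Tek at -0.19 ± 0.03, and their sum ranged from 8792 to 11956 at 10 weeks and from 10453 to 14193 at 5 weeks. Of 12 stellate and fibroblast genes 7 fell and 2 rose, led by Lum (-1.08 ± 0.18), Dcn (-0.66 ± 0.12), Reln (-0.31 ± 0.08) and Lrat (-0.23 ± 0.06), and Col1a1 fell by 0.34. In DEN3/PB livers, where Cd14 passed, Hbb, Pf4 and Alas2 fell by 1.11, 0.93 and 0.90 and Kdr and Lyve1 by 0.43 and 0.38. Their part in the Cd14 and Il7 results was not tested.

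Other genes of macrophages and lymphocytes went both ways over time. Over the 7 treatments 24.7% of all genes passed, and the counts below are to be read against that share. Of 37 other macrophage and myeloid genes 4 rose and 6 fell over the 7 treatments, led by Lgals3 (0.83 ± 0.08), Stab1 (-0.23 ± 0.06), a scavenger receptor shared with sinusoidal endothelium, the cathepsin Ctsz (0.20 ± 0.05) and the platelet and leukocyte protein Plek (-0.24 ± 0.06). Lgals3 also passed in 5 single treatments: by 1.18 in MC/PB, 0.94 in APAP/PB, 0.90 in DEN3/PB, 0.79 in TAA/PB and 0.76 in MP/PB livers. Of 21 other T and NK cell genes 3 passed, all lower at 10 weeks: the NK receptor Klrg1 (-0.28 ± 0.07), the chemokine receptor Cxcr3 (-0.26 ± 0.07) and Cd7 (-0.21 ± 0.07). Of 6 B and plasma cell genes, the antibody joining chain Jchain (-0.42 ± 0.09) and Fcrla (-0.53 ± 0.15) passed, both lower. Of 26 chemokine and adhesion genes Cxcl12 (-0.31 ± 0.06), Cxcl11 (-0.16 ± 0.05) and Vcam1 (-0.21 ± 0.07) passed. Of 2 neutrophil genes tested, S100a9 rose by 0.48 ± 0.13 and S100a8 did not pass (0.27 ± 0.14, limma, adjusted p = 0.157). Their summed signal was low, 99.1 to 434 at 10 weeks and 53.5 to 357 at 5 weeks. The biliary gene Epcam rose by 0.35 ± 0.07 while Spp1 fell by 0.43 (SE 0.11), and the hepatocyte genes Cps1 and Fgb each fell by 0.11.

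The change of each effect with time, the test of whether a treatment acted differently at the 2 weeks, gave 0 of 28 members in all 6 comparisons, as it gave 0.0% of all genes. The members with the smallest p-values were Il7 (-0.74 ± 0.38), Cd3g (0.54 ± 0.42) and C1qb (-0.37 ± 0.31) for PB, and Gzma (-0.49 ± 0.34) and Itgb2 (-0.34 ± 0.27) beside Cd14 for DEN3. For DEN30 they were C1qb (0.51 ± 0.31), the lymphocyte receptor Cd5 (0.44 ± 0.36) and Cd14 (0.44 ± 0.37), and for TAA Ctss (-0.42 ± 0.26), Cd68 (-0.39 ± 0.27) and Cd14 (0.46 ± 0.35). For MP they were Gzma (-0.52 ± 0.34), C1qa (0.42 ± 0.31) and Cd5 (0.46 ± 0.34), and for APAP Ptprc (0.38 ± 0.29), Lck (0.33 ± 0.27) and Cd14 (-0.35 ± 0.37).

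Because each rat gave 2 livers, an animal's level could be followed through surgery and 5 further weeks. For each gene the deviation of an animal from its group mean at 10 weeks was set against that at 5 weeks, over 31 animals, with a permutation test over all 10900 genes (100000 resamples). The correlation was above 0 with an adjusted p under 0.05 for 9 of 13 macrophage members and 4 of 15 lymphocyte members, where 36.2% of all genes were. The median r was 0.45 over macrophage members and 0.23 over lymphocyte members, with 0.31 over all genes, and 0.41, 0.15 and 0.25 once the array set means were removed. Taken gene by gene, rats above or below their group mean at surgery thus tended to be so at euthanasia for most macrophage markers, as for many other genes. No level over all markers of a rat was followed between the weeks. Both arrays of an animal lay in the same set, and the permutations shuffled animals across the sets. No test was made with set means removed, and whether the tendency is a trait of the animal was not tested.

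Lyz2, the macrophage lysozyme, gave the highest correlation of the members, with r = 0.88 and rho = 0.81 (permutation p = 1e-05, the smallest these resamples give, adjusted p = 1.18e-04). Its signals in TAA/PB livers were 5407, 4795, 4876, 4550 and 1687 at 10 weeks and, in the same animals, 5711, 4663, 5130, 3995 and 1402 at 5 weeks. The fifth animal was thus far below the other 4 at both weeks. Without the 2 animals farthest from the median at 5 weeks r was 0.76, and within array sets 1 and 2 it was 0.75 and 0.95. APAP/PB livers kept their order too, with 3126, 3509, 2622 and 2191 at 10 weeks and 2992, 3354, 2435 and 1941 at 5 weeks.

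Other members held their order to a lesser degree. Cd14 had r = 0.68 and rho = 0.69 (permutation adjusted p = 4.26e-04 for r), 0.61 without the 2 farthest animals, and 0.59 and 0.80 within the sets. C1qc had r = 0.64 and rho = 0.57 (permutation adjusted p = 7.57e-04 for r), and r was 0.38 with set means removed and 0.62 and 0.41 within the sets. Cd163 had r = 0.57 and rho = 0.53, Ctss 0.55 and 0.44, Cd68 0.45 and 0.44, and C1qb 0.45 and 0.43, each with permutation adjusted p-values under 0.05. Clec4f had r = 0.49 and rho = 0.39, and Csf1r 0.45 and 0.42, with a permutation adjusted p under 0.05 for r but not for rho. Without the 2 farthest animals r was 0.30 for Clec4f. Within sets 1 and 2, r was 0.79 and 0.12 for C1qb, 0.76 and 0.27 for Cd68, and 0.58 and 0.25 for Csf1r. It was 0.64 and 0.45 for Cd163, 0.65 and 0.49 for Ctss, and 0.54 and 0.41 for Clec4f. Aif1 (0.42), C1qa (0.39), Adgre1 (0.21) and Itgb2 (-0.14) did not pass. Of the lymphocyte members Gzma passed with r = 0.52, which stayed at 0.52 with set means removed, as did Ccl5 with 0.47 and 0.56. Within the sets r was 0.46 and 0.57 for Gzma and 0.52 and 0.47 for Ccl5. Prf1 (0.53) and Cd4 (0.47) passed too, but with set means removed r was -0.04 and 0.14, and within the sets it was -0.13 and 0.52 for Prf1 and 0.32 and 0.015 for Cd4. Il7, which changed most over time, had r = 0.11 (permutation adjusted p = 0.679).

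**Figure D5:**
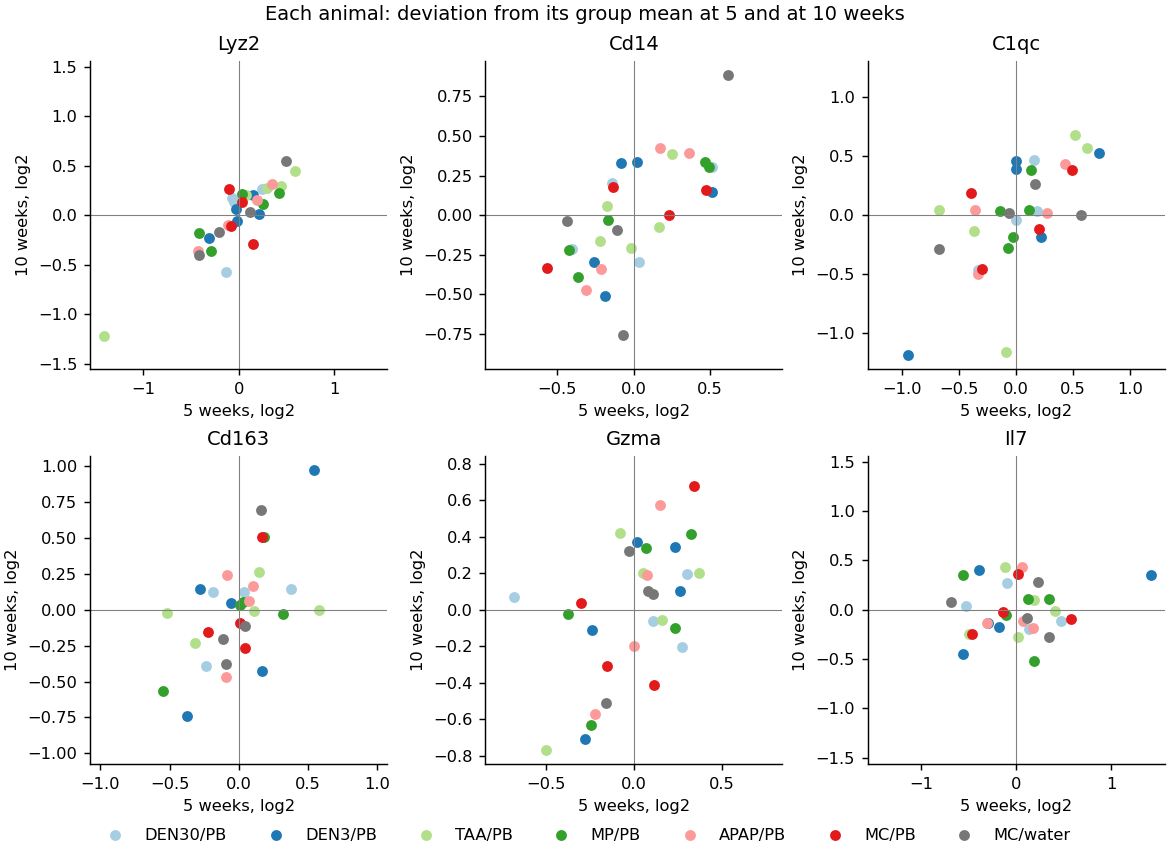
Deviation of each of 31 animals from its group mean in log2(signal + 25), at 5 weeks (horizontal) and 10 weeks (vertical), for 4 macrophage genes and for Gzma and Il7; colours are treatments. Lyz2 points follow the diagonal (r = 0.88), with 1 TAA/PB animal at the lower left, and Il7 points do not (r = 0.11).

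Macrophage members also varied together between rats of the same group. The 3 chains of C1q, which are assembled into 1 protein that binds antibody and dying cells, are given as an example, chosen with the values known. Over 31 animals the correlation between C1qa and C1qc was 0.83 at 10 weeks and 0.84 at 5 weeks. Between C1qa and C1qb it was 0.76 at both weeks, and between C1qb and C1qc it was 0.75 at 10 weeks and 0.74 at 5 weeks. All 6 passed a permutation test (adjusted p 1.2e-05 to 2e-05 over the 6, raw p 1e-05 to 2e-05). The adjustment does not cover the choice of these pairs, and the test kept the set means, so the p-values add no support. Across the 6, rho ran from 0.63 to 0.82, and without the 2 animals farthest from the median r ran from 0.64 to 0.79. With set means removed r was 0.72 to 0.89, and on that scale r reached 0.7 in 0.169% of all gene pairs at 10 weeks and 0.106% at 5 weeks. The windows of C1qa (chr5:154419884-154420183, minus strand) and C1qb (chr5:154407778-154408077, minus strand) in GRCr8, with GAGGAA on either strand in capitals, are shown to set these neighbouring, co-varying genes side by side.
C1qa: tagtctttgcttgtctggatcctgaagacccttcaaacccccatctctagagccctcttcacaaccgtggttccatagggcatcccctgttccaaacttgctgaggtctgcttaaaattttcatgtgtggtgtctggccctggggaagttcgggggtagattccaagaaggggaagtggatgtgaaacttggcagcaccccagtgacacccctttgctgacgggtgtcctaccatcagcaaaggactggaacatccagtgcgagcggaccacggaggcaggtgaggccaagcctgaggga
C1qb: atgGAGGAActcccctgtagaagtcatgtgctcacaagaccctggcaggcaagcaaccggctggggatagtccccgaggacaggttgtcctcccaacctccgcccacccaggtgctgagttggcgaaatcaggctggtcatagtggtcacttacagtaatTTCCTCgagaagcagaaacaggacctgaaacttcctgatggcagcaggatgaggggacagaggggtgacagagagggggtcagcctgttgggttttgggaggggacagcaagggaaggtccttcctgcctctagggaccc
The C1qb window held the hexamer 2 times and the C1qa window held none. No window for C1qc was used.

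Over all 78 pairs of macrophage members the median r, with group and set means removed, was 0.68 at 10 weeks and 0.34 at 5 weeks, with 67 and 73 pairs above 0. Over 105 pairs of lymphocyte members it was 0.18 and 0.10, and between the 2 kinds it was 0.30 at 10 weeks and -0.04 at 5 weeks. The median over all gene pairs was 0.001 at both weeks. Clec4f had a median r of 0.76 with the other macrophage members at 10 weeks and of 0.38 at 5 weeks. Cd163 had 0.64 and 0.31. For Cd14 it was 0.10 at 10 weeks and 0.14 at 5 weeks. Il7, a lymphocyte member, had a median r of 0.10 and 0.09 with the macrophage members. These pairwise values share the arrays and their depth of signal, and are given as descriptions with no test.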

How the data were processed

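Liver RNA of 31 rats at 2 times was hybridised to 62 rat expression arrays. The deposited values are intensity signals that the authors computed with MAS5 5.0, per the submitters' processing notes, and per array they share 1 trimmed mean. Of 31099 probe sets, 57 controls were left out, 20826 had 1 symbol, 436 several and 9780 none in the platform annotation. Signals were taken as log2(signal + 25), and a gene was tested where its probe set reached 100 on at least 4 arrays of the fit, which left 10485 genes at 5 weeks, 10538 at 10 weeks and 10900 over both. Within a week each array is another animal, so p-values measure the spread between animals. Over both weeks each animal gave 2 arrays, which the fit without the animal block treats as separate.

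Groups were compared with limma 3.58.1 in R 4.3.3 (lmFit and eBayes with an intensity trend), with Benjamini-Hochberg adjustment over all genes tested and a threshold of 0.05. Comparisons within a week used the 31 arrays of that week, those over time all 62. Permutation tests used numpy 2.4.6, with ranks from scipy 1.17.1. The limma fits were tested on simulated data with independent noise, and the permutation tests were not. Same-numbered arrays of a treatment at the 2 weeks are of 1 animal, since the series' design text says that each animal gave both livers. They correlated at 0.206 to 0.396 over genes, against -0.273 to 0.105 with other animals, and 62 of 62 arrays correlated best with their own animal. Values with the animal as a block are given where they change a call. Within a week, equal numbers mark different animals.

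The members, the gene lists and the tests were chosen with earlier results of these data known. All 35 members were accounted for, those that passed were named in each comparison, and otherwise the 3 with the smallest p-values. Of other lists, up to 4 genes were named where any passed. The averages over PB-drinking groups, initiated groups and 7 treatments were added after the values were seen. Alternatives were no filter, quantile normalization, no offset, all probe sets, only the compared groups, array set and replicate blocks, and leaving out each array.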

Additional observations from a re-analysis of the deposited data

Results flagged for a closer look

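Of 168 groups of 4 or 5 arrays, over 12 genes, 5 held an array farther from the others than Dixon's 95% limit allows, where chance gives about 5% of groups. Il7 read 607 in DEN3/PB replicate 1 at 5 weeks, and 135 to 184 in the other 4 livers. Il7 read 551 in APAP/PB replicate 4 at 10 weeks, and 349 to 368 in the others. Ccl5 read 397 in APAP/PB replicate 1 at 10 weeks, and 523 to 528 in the others. Cd163 read 232 in DEN30/PB replicate 3 at 10 weeks, and 341 to 346 in the others. Lyz2 read 1687 in TAA/PB replicate 5 at 10 weeks, and 4550 to 5407 in the others. The same TAA/PB animal also had the lowest Lyz2 signal of its group at 5 weeks, 1402. No effect of a member differed between the weeks by test.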

How the results depend on the processing

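The counts of members called are small, so that 1 gene near the threshold moves them. The PB effect at 10 weeks (1 call, Cd14) had 0 with no filter, all probe sets, only the compared groups, within array set 1 and within array set 2. The difference over time in MC/water (1 call, Il7) had 0 with only the compared groups, within set 1 and within set 2. That in DEN3/PB (1 call) had 5 with the replicate block and 0 within set 2. That in TAA/PB (0 calls) had 1 with only the compared groups, with the replicate block and with the array set block. Those in DEN30/PB, MP/PB and APAP/PB (0 calls) had 1 each with the replicate block. Time over the 7 treatments (3 calls) had 6 with the replicate block and 1 within set 2. PB-drinking groups against MC/water at 10 weeks (1 call) had 0 within set 2 and at 5 weeks (0 calls) 1 within set 1.

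With the replicate number as a block within a week, where numbers are not shown to pair the animals, PB-drinking groups against MC/water at 10 weeks had 4 calls, where 6.04% of all genes were higher and 4.45% lower: Cd14, C1qb (-0.45 ± 0.14, adjusted p = 0.0376), Cd68 (-0.41 ± 0.13, adjusted p = 0.0372) and Gzmb (-0.62 ± 0.18, adjusted p = 0.0234). Gzmb met the 10-week filter only through the MC/water livers, where it was high, so its call rests on that selection. Every same-numbered pair correlated above 0.1 in 3 of 14 comparisons of 2 groups, and the block changed no other count of members than those given. Leaving out each array gave 0 to 1 calls for the PB effect at 10 weeks and for time in MC/water and TAA/PB, 1 to 2 for time in DEN3/PB and PB-drinking groups at 10 weeks, 2 to 4 for time over the 7 treatments, and 0 to 0 for all others. The 2 calls of PB-drinking groups came without MC/water replicate 1 and without DEN30/PB replicate 4. Cd68 (-0.43, limma, adjusted p = 0.0478) was the added call in 1 of these 2 fits, and the member added in the other is not named here.

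Of the single genes, 2175 alternatives kept direction and side of the threshold, 55 lost a call, 14 gained one and 6 changed sign, all within 1 array set. These were Itgb2 for TAA at 5 weeks (0.0275 in set 2), Aif1 for APAP (-0.00924 in set 2) and for the initiated groups (-0.0713 in set 2) at 10 weeks, Cd3g over time in MC/water (0.259 in set 2) and for PB by time (-0.522 in set 2), and Ms4a1 over time in APAP/PB (0.0591 in set 1). Ccl5 over the 7 treatments was lost in 31 of 62 fits without 1 array. Fits within a set hold fewer arrays, and for the other changes the cause was not tested. Genes with signals under 100 on most arrays were below what these arrays measure well.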
